A study of Mus musculus with 12 samples.

Results

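The 36 mouse genes described here encode the collagens of fibrils and basement membranes, the laminins, glycoproteins and proteoglycans that assemble with them, and the enzymes that modify, fold and cross-link collagen. They were taken by gene symbol from a deposited table of 54532 genes by a rule that uses no measured value, although the list was drawn up with earlier results of these data known. MC38, a mouse colorectal cancer line grown in culture, was sequenced in 4 groups of 3 libraries. Combination cells received nintedanib at 3 µM and X-rays at 8 Gy, nintedanib cells the drug alone, radiation cells the X-rays alone, and control cells neither. The labels give 24 hours for the treatments and state that the whole experiment was carried out 3 times independently, and they do not say whether control cells received the solvent of the drug. Nintedanib blocks the receptor kinases of the VEGF, FGF and PDGF families and is prescribed against lung fibrosis. All values come from 1 cell line, 1 dose of each agent and 1 time, with RNA from whole cultures, so fewer cells expressing a gene and less RNA per cell cannot be told apart.

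Collagen chains are made in the endoplasmic reticulum, where prolyl and lysyl hydroxylases modify them and a dedicated chaperone accompanies the folded triple helix. Outside the cell, fibrillar collagens align into fibrils whose lysines are oxidised by the lysyl oxidase family, and the resulting cross-links stiffen the matrix. Basement membranes are built from separate networks of laminin and type IV collagen that nidogen and perlecan hold together. In solid tumours most interstitial collagen is usually credited to fibroblasts, although carcinoma cells with mesenchymal features also transcribe these genes.

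RNA was measured as FPKM, which sets the fragments of a gene against the length of its gene model and a depth assigned to its library. The libraries held 16103528 to 18196615 fragments, and 1 FPKM in a gene of 1 kb stood for 16.4 to 18.7 fragments. Of the 36 genes, 33 reached 1 FPKM in at least 3 libraries and were tested among 13012 such genes; Nid1, Lox and Lum did not. Checked against marker lists, the libraries carried Vim at 498 to 618 FPKM and 9 of 10 mesenchymal markers at 1 FPKM or more in at least 1 library, but 3 of 12 epithelial ones. The mesenchymal sum was 731 to 902 FPKM in combination, 666 to 857 in nintedanib, 694 to 830 in radiation and 773 to 867 in control libraries. Within that list S100a4 varied widely between replicates, at 118 to 203 FPKM in combination and 5.05 to 193 in nintedanib libraries. It was at 28.3 to 92.2 FPKM in radiation and 91.9 to 115 in control libraries. Epcam and Esrp1 were listed at 0 in all 12 libraries, and Krt8 reached 0.601 FPKM at most. The 3 epithelial markers that reached 1 FPKM were Cdh1 at 4.12 to 8.73, Krt19 at 0.623 to 4.82 and Muc1 at 0.182 to 1.06 FPKM, so most defining epithelial markers of a colorectal cancer line were absent or low. The leukocyte list, 2 of 9 of which reached 1 FPKM, summed to 17.8 to 20.3 FPKM in combination, 14.9 to 15.8 in nintedanib, 4.98 to 6.15 in radiation and 4.22 to 5.08 in control libraries, while Ptprc never passed 0.0292 FPKM and Cd3e was at 0. Nearly all of that sum was Cd68, at 16.2 to 19.5 FPKM in combination, 13.6 to 14.4 in nintedanib, 4.28 to 5.41 in radiation and 3.55 to 4.60 in control libraries; the rest of the list summed to 1.89 FPKM at most. The epithelial sum ran from 12.3 to 14.7, 7.26 to 10.2, 7.01 to 7.87 and 5.61 to 6.57 FPKM in the same order of groups, and the endothelial sum, with 1 of 7 markers at 1 FPKM and Erg at 0, was 1.69 to 2.75, 1.70 to 2.30, 1.12 to 1.62 and 1.34 to 1.61 FPKM. The part of these shifts in the results below was not tested.

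The matrix genes were strongly expressed in these cells. Serpinh1, the collagen chaperone, was the highest with a mean of 462 FPKM over all libraries, rank 48 among all genes, followed by the proteoglycan Bgn at 239 FPKM. Of the 36 genes, 6 averaged at least 100 FPKM, 21 lay from 10 to 100 FPKM, 5 from 1 to 10 FPKM, and 4 (Col12a1, Nid1, Lox and Lum) below 1 FPKM. Summed over the 36 genes, FPKM was 1979 to 2136 in combination, 1865 to 2059 in nintedanib, 2019 to 2232 in radiation and 1945 to 1985 in control libraries. The sums of combination, nintedanib and control libraries overlapped.

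**Figure D1:**
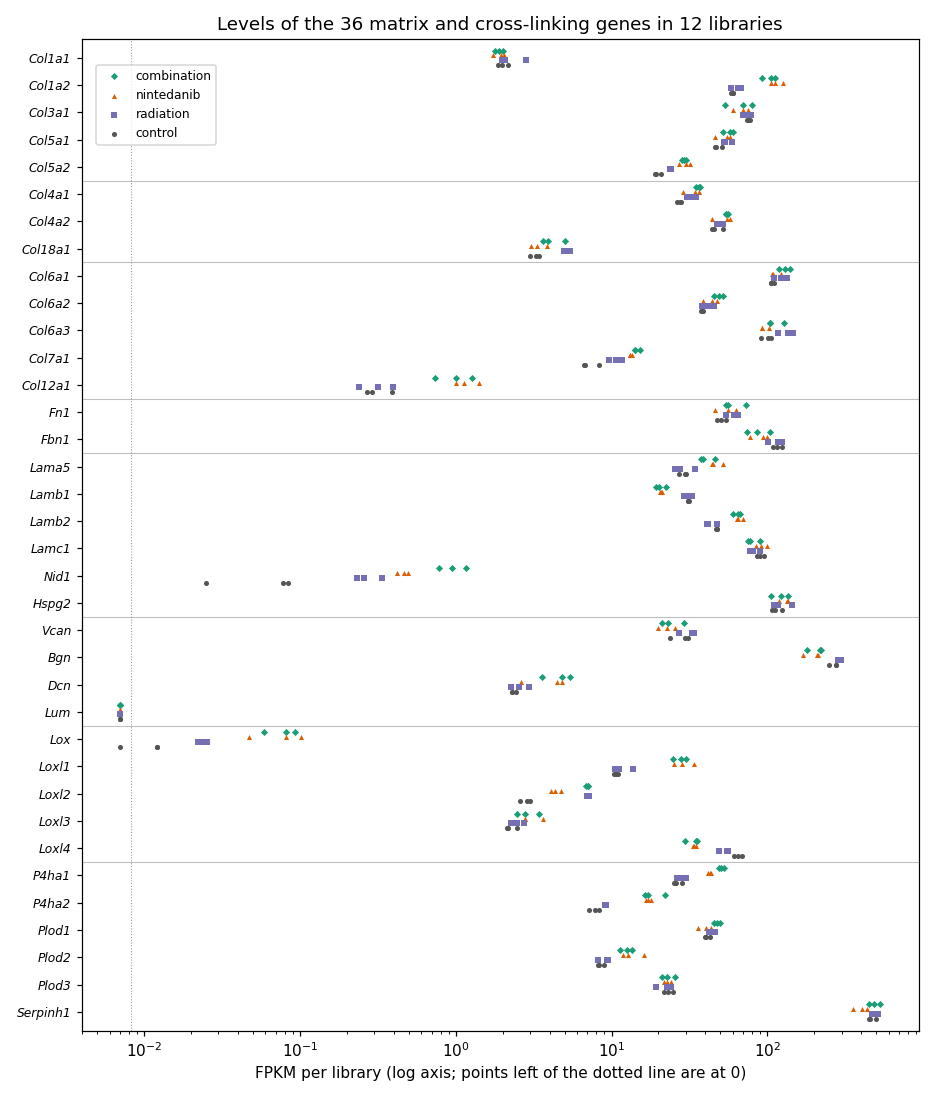
FPKM of each of the 36 genes in each of the 12 libraries on a log axis, grouped by role; every point is 1 library, and points left of the dotted line are at 0. Most genes keep their place within a narrow band across groups, while Loxl1, P4ha2, Col12a1 and Nid1 stand visibly higher in combination and nintedanib libraries than in control.

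Nintedanib changed more of these genes than radiation did, which also held for all genes, and most of the changed members rose. Counted by an adjusted p under 0.05 in limma, 21 of the 33 tested members (63.6%) changed with the combination against control, 17 rising and 4 falling. Of all genes tested 47.2% passed, 22.3% upward and 25% downward. Nintedanib alone moved 18 (54.5%), of which 14 rose and 4 fell, against 41.6% of all genes, 19.7% upward and 22% downward. Radiation alone moved 6, of which 5 rose and 1 fell, against 17.9% of all genes, 8.04% upward and 9.9% downward; 6 of 33 is 18.2%, so the share was near the background. Between combination and radiation, which differ by the drug, 11 rose and 4 fell, 45.5% of the members (34.4% of all genes passed, 17.2% upward and 17.3% downward). Between combination and nintedanib, which differ by the X-rays, 1 rose and 0 fell, against 5.55% of all genes, 3.17% upward. Col12a1 is among the rises of every comparison of drug with no drug and was under 1 FPKM in every library without the drug, so that it could be tested only through the groups where it was high. Without it the calls were 20 of 32 members with the combination, 17 with nintedanib and 14 between combination and radiation.

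The median log2 fold change over the tested members was 0.26 for combination against control, 0.15 for nintedanib, 0.10 for radiation, 0.08 for combination against radiation and 0.06 for combination against nintedanib. Over all genes tested the medians were -0.03, -0.02, -0.04, -0.01 and -0.01 in the same order. Changes of at least 2-fold on the scale of FPKM + 1 were few: Loxl1, P4ha2 and Loxl2 with the combination (5.22% of all genes), Loxl1 and P4ha2 with nintedanib (3.83%), Loxl2 with radiation (0.576%), Loxl1 between combination and radiation (2.67%), and 0 members between combination and nintedanib (0.223%). By the plain ratio of mean FPKM, P4ha2 between combination and radiation, at 2.01 times, and the low gene Col12a1 also passed 2-fold. The groups did not overlap for 24 members in combination against control (56.8% of all genes), 20 in nintedanib against control (51.1%), 11 in radiation against control (41.8%), 17 in combination against radiation (47.4%) and 6 in combination against nintedanib (22.2%). The split by direction depended on the scaling of the libraries: rescaled to a common sum, nintedanib raised 17 and lowered 2, and radiation raised 8 and lowered 0. Radiation raised 6 and lowered 0 when fragments were scaled by library totals. Over all genes the same common sum moved the share of upward calls to 60% with nintedanib, against 47.2% as deposited, and to 69.7% with radiation, against 44.8%. Leaving out control replicate 3 lowered the radiation count to 3, all upward.

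**Figure D2:**
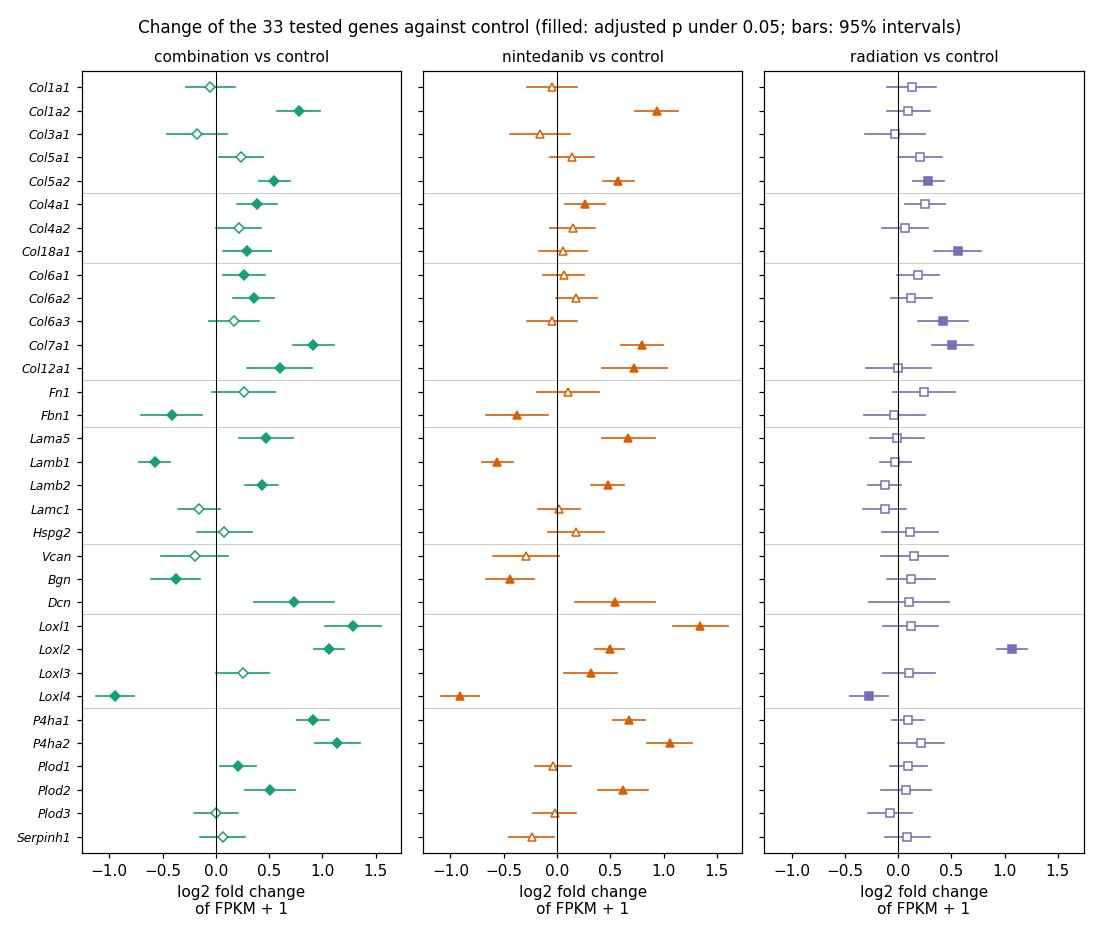
Log2 fold change of FPKM + 1 against control for the 33 tested genes, with combination, nintedanib and radiation in panels from left to right; bars are 95% intervals and filled symbols have an adjusted p under 0.05. The combination and nintedanib panels hold 21 and 18 filled symbols, Col12a1 among them in both. The radiation panel holds 6, with Loxl2 farthest from 0.

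The fibrillar collagens moved unequally, with Col1a2 and Col5a2 rising and their partner chains not passing the test. Changes are given as the log2 fold change of FPKM + 1 with its SE and the adjusted p of limma. Col1a2, which encodes the second chain of type I collagen (ENSMUSG00000029661, chr6:4504814-4541544 on the plus strand), stood at 105, 112 and 91.9 in combination, 106, 126 and 112 in nintedanib, 58.4, 65.01 and 68.1 in radiation and 58.3, 59.8 and 60.4 in control libraries FPKM. All 6 libraries with the drug lay above all 6 without it. Against control it rose with nintedanib (0.93 ± 0.09, adjusted p = 1.55e-05) and with the combination (0.78 ± 0.09, adjusted p = 4.59e-05), and it was also higher in combination than in radiation cells (0.68 ± 0.09, adjusted p = 0.000226). Col1a1, the major chain of the same protein, averaged only 1.89 ± 0.112 in combination, 1.90 ± 0.158 in nintedanib, 2.30 ± 0.474 in radiation and 2.0 ± 0.146 FPKM in control libraries (SD, n = 3 each), on 208 to 332 fragments per library. Its log2 fold change was -0.05 with nintedanib (95% interval -0.28 to 0.18). The Col1a1 to Col1a2 ratio of FPKM was low everywhere, at 0.0190, 0.0159 and 0.0207 in combination, 0.0192, 0.0154 and 0.0154 in nintedanib, 0.0356, 0.0303 and 0.0417 in radiation, and 0.0370, 0.0312 and 0.0327 in control libraries. Libraries with the drug were below all those without it. No test was run on this ratio. For any single comparison of 3 against 3 libraries, an exact permutation test cannot give a two-sided p below 0.1.

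Col5a2, a chain of the type V collagen that starts fibrils and limits their width (ENSMUSG00000026042, chr1:45374321-45503282 on the minus strand), was at 29.9, 29.3 and 28.2 in combination, 27.1, 30.2 and 31.8 in nintedanib, 24.2, 23.7 and 24.2 in radiation and 18.9, 20.7 and 19.2 in control libraries FPKM. The control libraries were the lowest, radiation next, and the drug groups highest, with no overlap between the 3 treated groups and control. It rose with nintedanib (0.57 ± 0.07, adjusted p = 5.13e-05), radiation (0.28 ± 0.07, adjusted p = 0.0153) and the combination (0.55 ± 0.07, adjusted p = 5.57e-05), and between combination and radiation (0.27 ± 0.07, adjusted p = 0.00968). The radiation call was lost without control replicate 1 or control replicate 3 (adjusted p 0.0559 to 0.0606), and the one between combination and radiation was lost after rescaling to a common sum (adjusted p = 0.0876). Col5a1, its partner chain, did not pass in any comparison and averaged 56.6 ± 4.02 in combination, 53.02 ± 6.11 in nintedanib, 55.3 ± 3.72 in radiation and 47.8 ± 2.67 FPKM in control libraries. Col3a1, the single chain of type III collagen, likewise passed nowhere, at 67.6 ± 13.3, 68.1 ± 7.63, 74.4 ± 3.91 and 75.7 ± 1.98 FPKM. Col3a1 and Col5a2 lie 24.6 kb apart on chromosome 1.

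Among the basement membrane collagens, Col4a1 passed the test with nintedanib and the combination, and Col18a1 with radiation and the combination. Col4a1 and Col4a2 encode the chains of the most widespread type IV collagen and overlap head to head by 22 bases on chromosome 8. Col4a1 averaged 35.99 ± 1.02 in combination, 33.02 ± 3.97 in nintedanib, 32.7 ± 2.22 in radiation and 27.2 ± 0.680 FPKM in control libraries; all 9 treated libraries exceeded all 3 controls. It rose with the combination (0.39 ± 0.09, adjusted p = 0.00292) and with nintedanib (0.26 ± 0.09, adjusted p = 0.0277), and its value after radiation was 0.25 ± 0.09, adjusted p = 0.0614. The changes with nintedanib alone and radiation alone were thus similar in size. Between combination and radiation Col4a1 did not pass (0.14 ± 0.09, adjusted p = 0.246). The nintedanib call was lost in 8 of 20 alternative settings, 5 of which left out nintedanib replicate 1 or 2 or any control replicate (adjusted p 0.0509 to 0.0956 over the 8). Col4a2 stood at 54.4 ± 0.901, 52.3 ± 7.04, 48.97 ± 2.49 and 46.9 ± 4.18 FPKM in the same order and passed in no comparison.

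Col18a1, the type XVIII collagen that carries endostatin (ENSMUSG00000001435, chr10:77052178-77166548 on the minus strand), was at 3.93, 5.01 and 3.66 in combination, 3.33, 3.86 and 3.02 in nintedanib, 5.35, 5.37 and 4.92 in radiation and 3.40, 3.27 and 3.002 in control libraries FPKM. The radiation libraries were above every control library and above every nintedanib library. It rose with radiation (0.56 ± 0.10, adjusted p = 0.00462) and with the combination (0.29 ± 0.10, adjusted p = 0.0349); nintedanib alone gave 0.06 ± 0.10, adjusted p = 0.689. The combination call was lost in 6 of 20 settings, 4 of which left out combination replicate 2 or any control replicate (adjusted p 0.0507 to 0.138 over the 6). Slc19a1 lies on the opposite strand within the same span, and without a stated strand setting its reads cannot be told apart from those of Col18a1. Slc19a1 moved the other way, at 4.13 to 5.60 FPKM in combination, 6.04 to 8.36 in nintedanib, 7.07 to 8.85 in radiation and 18.9 to 19.5 in control libraries.

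Of the collagens among the 36 genes, Col7a1 alone passed the test against control in all 3 treated groups with every alternative setting. It encodes the collagen of anchoring fibrils, which tie basement membranes to the stroma (ENSMUSG00000025650, chr9:108953586-108984875 on the plus strand), and stood at 14.1, 14.1 and 15.3 in combination, 13.6, 13.1 and 13.2 in nintedanib, 9.70, 11.7 and 10.7 in radiation and 6.62, 8.37 and 6.74 in control libraries FPKM. Control was lowest, radiation intermediate and both drug groups highest, and no treated library reached down into the control range. The log2 fold changes were 0.91 ± 0.09, adjusted p = 1.15e-05 with the combination, 0.80 ± 0.09, adjusted p = 3.73e-05 with nintedanib, 0.51 ± 0.09, adjusted p = 0.00346 with radiation, and 0.40 ± 0.09, adjusted p = 0.00464 between combination and radiation. Col12a1, a collagen that decorates the surface of fibrils (ENSMUSG00000032332, chr9:79598991-79718831 on the minus strand), was low, at 0.997, 0.740 and 1.27 in combination, 1.40, 1.01 and 1.13 in nintedanib, 0.241, 0.397 and 0.317 in radiation and 0.289, 0.269 and 0.388 in control libraries FPKM. It passed the filter on low values only through the libraries with the drug, so that a difference there was built into its being tested, and its values are given without a test. Every library with the drug was above every library without it. Its mean FPKM was 3.17 times control with the combination, 3.75 times control with nintedanib and 3.14 times radiation with the combination, on 60 to 381 fragments per library. On the log2(FPKM + 1) scale the differences from control were 0.60 with the combination and 0.73 with nintedanib.

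Type VI collagen forms beaded filaments around cells. Its chains Col6a1 and Col6a3, with means of 118 and 109.9 FPKM over all libraries, were the highest collagens among the 36 genes, while Col6a2 averaged 43.01 FPKM. Col6a3 (ENSMUSG00000048126, chr1:90765923-90843971 on the minus strand) was at 128, 104 and 104 in combination, 91.8, 103 and 92.7 in nintedanib, 118, 136 and 145 in radiation and 105, 91.5 and 100.2 in control libraries FPKM. Radiation libraries were above all controls, and the drug groups overlapped control. It rose with radiation (0.42 ± 0.11, adjusted p = 0.0214), a call lost in 5 of 20 settings, 4 of which left out radiation replicate 2 or 3 or control replicate 2 or 3 (adjusted p 0.0511 to 0.0810 over the 5). Col6a1 and Col6a2, which lie 85.2 kb apart on chromosome 10, rose with the combination: Col6a1 averaged 129.6 ± 10.3 in combination and 107 ± 3.03 FPKM in control libraries (0.27 ± 0.09, adjusted p = 0.0294). Col6a2 averaged 48.95 ± 3.12 in combination and 38.04 ± 0.640 FPKM in control libraries (0.35 ± 0.09, adjusted p = 0.00650). The Col6a1 call was lost in 5 settings, 4 of which left out combination replicate 1 or 2 or control replicate 1 or 3 (adjusted p 0.0576 to 0.110 over the 5). Neither passed with nintedanib or radiation alone, nor between combination and either single treatment. Col6a1 averaged 112 ± 8.18 in nintedanib and 123 ± 12.1 FPKM in radiation libraries. Col6a2 averaged 43.4 ± 4.56 in nintedanib and 41.7 ± 3.63 FPKM in radiation libraries. These means lay between those of control and combination.

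Of the glycoproteins, Fbn1 fell with the drug and Fn1 did not pass the test. Fn1, fibronectin, which links matrix to integrins, averaged 61.3 ± 10.3 in combination, 54.9 ± 8.60 in nintedanib, 60.3 ± 5.30 in radiation and 50.7 ± 3.23 FPKM in control libraries and passed in no comparison; the 95% interval of its change with nintedanib was -0.19 to 0.39 on the log2 scale. Fbn1, the fibrillin of elastic microfibrils, averaged 87.6 ± 14.6, 89.9 ± 11.4, 114 ± 12.1 and 116 ± 7.91 FPKM in the same order. It fell with the combination (-0.42 ± 0.13, adjusted p = 0.0226) and with nintedanib (-0.37 ± 0.13, adjusted p = 0.0405), and between combination and radiation (-0.38 ± 0.13, adjusted p = 0.0441), where the libraries overlapped. These calls were weak: the nintedanib call was lost in 12 of 20 settings (adjusted p 0.0532 to 0.187), the combination call in 7 (0.0520 to 0.0946) and the call between combination and radiation in 12 (0.0532 to 0.163). The nintedanib call was lost, among others, without nintedanib replicate 1 or 3, radiation replicate 2, combination replicate 2 or any control replicate. The combination call was lost without combination replicate 2 or 3 or control replicate 1 or 3, and the call between combination and radiation without radiation replicate 2 or 3, combination replicate 2 or 3, or any control replicate.

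The laminin beta chains moved in opposite directions with the drug. Laminins are trimers of an alpha, a beta and a gamma chain, and Lamb1 and Lamb2 encode alternative beta chains. Lamb2 (ENSMUSG00000052911, chr9:108479736-108490530 on the plus strand) stood at 66.6, 64.9 and 60.05 in combination, 64.4, 69.3 and 64.1 in nintedanib, 40.7, 41.7 and 47.2 in radiation and 46.6, 47.4 and 47.3 in control libraries FPKM. Lamb1 (ENSMUSG00000002900, chr12:31265234-31329644 on the plus strand) stood at 22.3, 20.2 and 19.3 in combination, 20.8, 21.02 and 20.4 in nintedanib, 29.9, 29.05 and 32.8 in radiation and 31.5, 30.8 and 31.03 in control libraries FPKM. For both genes the 6 libraries with the drug were separated from the 6 without it. Lamb2 rose with nintedanib (0.48 ± 0.07, adjusted p = 0.000292), with the combination (0.43 ± 0.07, adjusted p = 0.000478) and between combination and radiation (0.55 ± 0.07, adjusted p = 0.000157). Lamb1 fell in the same comparisons (-0.56 ± 0.07, adjusted p = 5.83e-05 with nintedanib, -0.58 ± 0.07, adjusted p = 3.94e-05 with the combination, -0.55 ± 0.07, adjusted p = 0.000109 between combination and radiation). Radiation alone gave -0.13 ± 0.07, adjusted p = 0.249 for Lamb2 and -0.03 ± 0.07, adjusted p = 0.825 for Lamb1. The Lamb2 to Lamb1 ratio of FPKM was 2.99, 3.21 and 3.12 in combination, 3.09, 3.30 and 3.14 in nintedanib, 1.36, 1.43 and 1.44 in radiation and 1.48, 1.54 and 1.52 in control libraries. A ratio within a library does not depend on its scaling.

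Lama5, an alpha chain common in mature basement membranes (ENSMUSG00000015647, chr2:180176373-180225859 on the minus strand), was at 45.98, 38.9 and 37.6 in combination, 44.4, 51.6 and 44.8 in nintedanib, 25.4, 27.5 and 34.4 in radiation and 30.2, 27.3 and 29.7 in control libraries FPKM. The drug groups were above the groups without it. It rose with nintedanib (0.67 ± 0.11, adjusted p = 0.000729), the combination (0.47 ± 0.11, adjusted p = 0.00545) and between combination and radiation (0.48 ± 0.11, adjusted p = 0.00732). Lamc1, the gamma chain shared by most laminins, averaged 80.9 ± 8.27 in combination, 91.6 ± 7.13 in nintedanib, 82.6 ± 6.26 in radiation and 90.2 ± 4.25 FPKM in control libraries and passed nowhere. Hspg2, perlecan, likewise passed nowhere, at 121 ± 14.6, 129 ± 9.17, 124 ± 18.3 and 114 ± 9.42 FPKM.

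Nid1, the nidogen that bridges laminin and type IV collagen (ENSMUSG00000005397, chr13:13437551-13512269 on the plus strand), was too low to be tested and stood at 1.16, 0.783 and 0.944 in combination, 0.420, 0.495 and 0.464 in nintedanib, 0.335, 0.231 and 0.259 in radiation and 0.0781, 0.0250 and 0.0834 in control libraries FPKM. Its fragments numbered 145, 97 and 116 in combination, 52, 61 and 59 in nintedanib, 38, 30 and 32 in radiation, and 9, 3 and 10 in control libraries. The 4 groups did not overlap, and their order was combination, nintedanib, radiation and control. With no filter on low values, its log2(FPKM + 1) differed by 0.88 between combination and control (limma, adjusted p = 3.32e-05). It differed by 0.46 between nintedanib and control (adjusted p = 0.00218) and by 0.26 between radiation and control (adjusted p = 0.0778). The difference was 0.62 between combination and radiation (adjusted p = 0.000525) and 0.42 between combination and nintedanib (adjusted p = 0.0274).

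**Figure D3:**
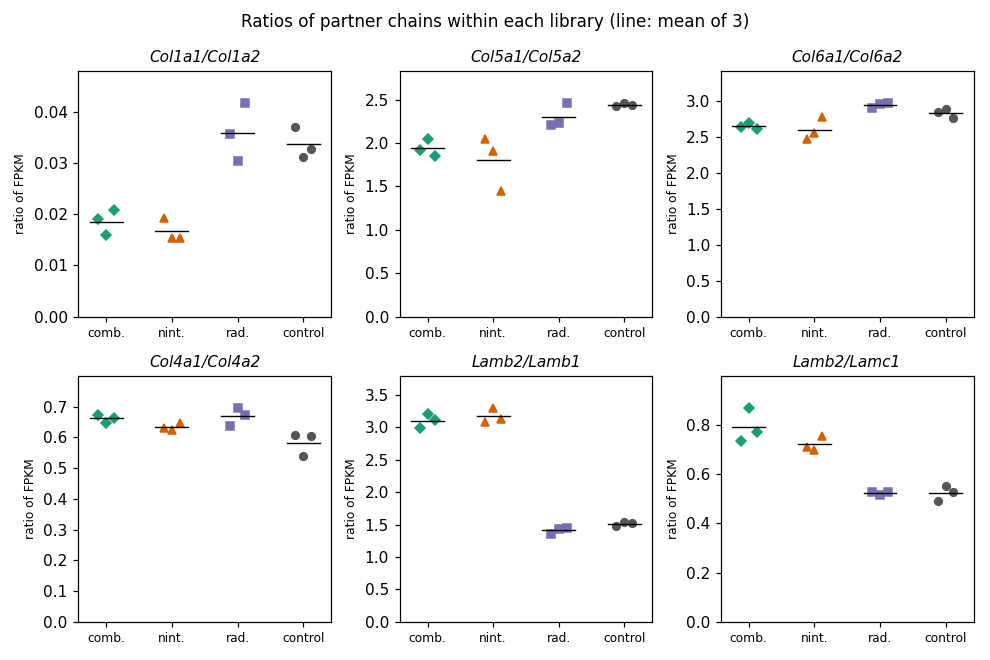
Ratio of FPKM of partner chains within each library for 4 collagen pairs and 2 laminin pairs, with axes from 0; points are libraries and lines the mean of 3. Combination and nintedanib libraries lie below radiation and control for Col1a1/Col1a2 and above them for Lamb2/Lamb1.

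The small proteoglycans also moved in opposite directions. Dcn, decorin, which binds collagen fibrils (ENSMUSG00000019929, chr10:97479609-97518143 on the plus strand), was at 4.83, 5.41 and 3.59 in combination, 2.64, 4.49 and 4.79 in nintedanib, 2.57, 2.95 and 2.25 in radiation and 2.43, 2.31 and 2.28 in control libraries FPKM. Every combination and nintedanib library was above every control library, although nintedanib replicate 1 stood close to control. It rose with the combination (0.73 ± 0.17, adjusted p = 0.00422), with nintedanib (0.55 ± 0.17, adjusted p = 0.0235) and between combination and radiation (0.64 ± 0.17, adjusted p = 0.0137). The nintedanib call was lost in 5 of 20 settings, 4 of which left out nintedanib replicate 2 or 3 or control replicate 2 or 3 (adjusted p 0.0585 to 0.0877 over the 5), and the call between combination and radiation without radiation replicate 3 or combination replicate 2 (0.0515 to 0.0583). Bgn, biglycan, a close relative of decorin, averaged 205 ± 22.2 in combination, 196 ± 23.1 in nintedanib, 289.6 ± 6.999 in radiation and 266 ± 14.8 FPKM in control libraries. It fell with nintedanib (-0.44 ± 0.10, adjusted p = 0.00523), the combination (-0.38 ± 0.10, adjusted p = 0.0106) and between combination and radiation (-0.50 ± 0.10, adjusted p = 0.00323). Rescaling to a common sum ended the first 2 of these calls (adjusted p = 0.0524 and 0.0706). Vcan, versican, a large proteoglycan of loose matrix, averaged 24.4 ± 4.21, 22.8 ± 2.92, 31.3 ± 3.68 and 28.1 ± 3.74 FPKM and passed nowhere. Lum, lumican, 47.0 kb from Dcn, was listed at 0 in all 12 libraries, which at 3 fragments allows up to 0.0656 to 0.0749 FPKM by counting error alone.

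In each comparison with control, the lysyl oxidases held both the largest rise and the largest fall among the tested members on the log2(FPKM + 1) scale; by the plain ratio of FPKM the low gene Col12a1 had a larger rise with the combination and with nintedanib. Loxl1, which acts on elastic and collagen fibres (ENSMUSG00000032334, chr9:58287738-58313186 on the minus strand), stood at 24.8, 28.01 and 30.3 in combination, 33.6, 28.2 and 25.1 in nintedanib, 10.5, 11.2 and 13.7 in radiation and 10.7, 10.4 and 11.05 in control libraries FPKM. All 6 libraries with the drug were above all 6 without it. Its mean was 2.70 times the control mean with nintedanib and 2.58 times with the combination. The tests gave 1.34 ± 0.12, adjusted p = 7.22e-06 for nintedanib, 1.29 ± 0.12, adjusted p = 7.53e-06 for the combination, 1.17 ± 0.12, adjusted p = 3.13e-05 between combination and radiation and 0.12 ± 0.12, adjusted p = 0.533 for radiation.

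Loxl4, the most abundant lysyl oxidase of control cells (ENSMUSG00000025185, chr19:42593982-42612813 on the minus strand), stood at 35, 29.6 and 35.1 in combination, 34.7, 33.9 and 33.4 in nintedanib, 55.6, 49.1 and 55.4 in radiation and 68.3, 64.7 and 61.1 in control libraries FPKM. The drug groups were lowest, radiation was between, and control was highest, with no overlap between the treated groups and control. It fell with nintedanib (-0.91 ± 0.08, adjusted p = 7.87e-06), with the combination (-0.94 ± 0.08, adjusted p = 4.78e-06) and between combination and radiation (-0.67 ± 0.08, adjusted p = 0.000106). The smaller fall after radiation (-0.27 ± 0.08, adjusted p = 0.0395) was lost in 11 of 20 settings (adjusted p 0.0520 to 0.237), among them each that left out nintedanib replicate 2, any radiation replicate or any control replicate, and every scaling to library or common totals.

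Loxl2, a lysyl oxidase that acts on type IV collagen in basement membranes (ENSMUSG00000034205, chr14:69609068-69695834 on the plus strand), followed radiation more than the drug. It stood at 7.05, 7.09 and 6.84 in combination, 4.73, 4.11 and 4.33 in nintedanib, 7.08, 6.94 and 7.12 in radiation and 2.60, 2.89 and 3.0 in control libraries FPKM. Combination and radiation libraries lay together at the top, nintedanib libraries between, and control libraries at the bottom, with gaps between these 3 levels. It rose with radiation (1.07 ± 0.06, adjusted p = 1.45e-05), with the combination (1.06 ± 0.06, adjusted p = 5.04e-07) and with nintedanib (0.49 ± 0.06, adjusted p = 0.000108). It was the 1 member that passed between combination and nintedanib (0.57 ± 0.06, adjusted p = 0.00101), and between combination and radiation its change was -0.01 with a 95% interval of -0.15 to 0.13. The drug effect in irradiated cells minus that in unirradiated cells was -0.50 ± 0.09, adjusted p = 0.101, the smallest adjusted p of any member in that comparison; over 19 alternatives it ran from 0.0657 to 0.267.

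Loxl3, a lower expressed relative, averaged 2.90 ± 0.503 in combination, 3.07 ± 0.470 in nintedanib, 2.49 ± 0.235 in radiation and 2.26 ± 0.189 FPKM in control libraries. Its rise with nintedanib (0.32 ± 0.11, adjusted p = 0.0418) was lost in 8 of 20 settings, 6 of which left out nintedanib replicate 2, radiation replicate 1 or 2, combination replicate 1 or control replicate 1 or 3 (adjusted p 0.0501 to 0.162 over the 8). Htra2 lies on the opposite strand of Loxl3, at 5.57 to 8.35 FPKM in combination, 7.72 to 9.29 in nintedanib, 7.81 to 9.34 in radiation and 11.5 to 14.7 in control libraries. Lox, the founding member of the family, was nearly silent. Its fragments numbered 8, 7 and 5 in combination and 7, 4 and 9 in nintedanib libraries. Radiation libraries held 2, 2 and 2, and control libraries 0, 1 and 1. With no filter on low values, its log2(FPKM + 1) differed from control by 0.10 with the combination (limma, adjusted p = 0.00929). The differences were 0.10 between nintedanib and control (adjusted p = 0.0126) and 0.07 between combination and radiation (adjusted p = 0.0486). These rest on at most 9 fragments per library. As shares of the summed FPKM of the 5 lysyl oxidases, Loxl4 made up 43.4 to 50.2% in combination, 45.7 to 50.8% in nintedanib, 70.1 to 73.5% in radiation and 79.1 to 81.5% in control libraries. Loxl1 made up 35.6 to 41.1%, 38.2 to 44.3%, 13.8 to 17.4% and 12.8 to 14.3% in the same order. The summed FPKM itself was 68.2 to 74.7 in combination, 65.7 to 75.9 in nintedanib, 69.6 to 79.0 in radiation and 77.2 to 83.8 in control libraries, and no library with the drug reached the control range.

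**Figure D4:**
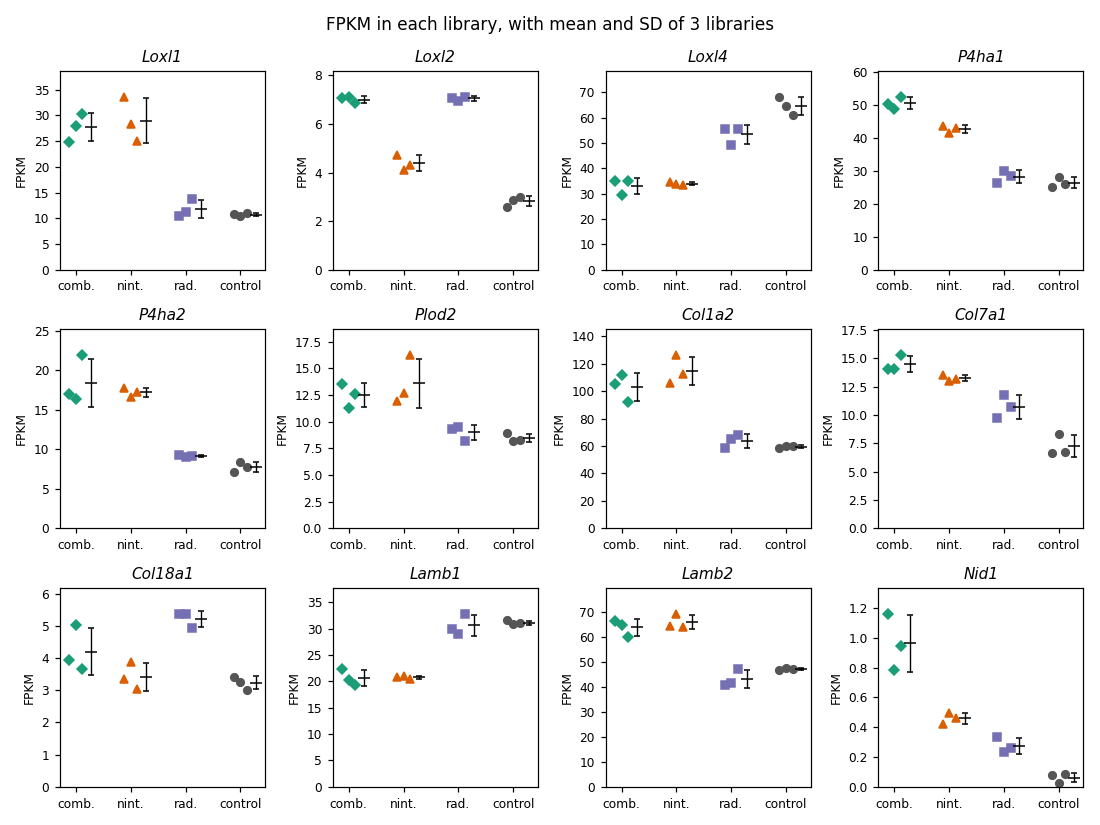
FPKM in each library for 12 of the genes, with axes from 0 and the groups in the order combination, nintedanib, radiation and control; bars are the mean and SD of 3 libraries. Loxl1, P4ha1, P4ha2, Col1a2 and Lamb2 are higher in both drug groups, Loxl4 and Lamb1 lower, Loxl2 is highest in both irradiated groups, and Col18a1 is highest after radiation alone.

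The prolyl hydroxylase subunits rose with the drug and the lysyl hydroxylases split. P4ha1 and P4ha2 encode catalytic subunits of collagen prolyl 4-hydroxylase, which stabilises the triple helix. P4ha1 (ENSMUSG00000019916, chr10:59323296-59373304 on the plus strand) stood at 50.2, 48.9 and 52.5 in combination, 43.7, 41.5 and 42.9 in nintedanib, 26.3, 30.1 and 28.3 in radiation and 25.1, 28.2 and 26.1 in control libraries FPKM. P4ha2 (ENSMUSG00000018906, chr11:54100095-54131665 on the plus strand) stood at 17.01, 16.3 and 21.9 in combination, 17.8, 16.6 and 17.3 in nintedanib, 9.26, 9.07 and 9.11 in radiation and 7.14, 8.36 and 7.78 in control libraries FPKM. In both, libraries with the drug were separated from those without it. P4ha1 rose with nintedanib (0.67 ± 0.07, adjusted p = 1.9e-05), the combination (0.91 ± 0.07, adjusted p = 1.99e-06) and between combination and radiation (0.82 ± 0.07, adjusted p = 8.35e-06). P4ha2 rose in the same comparisons (1.06 ± 0.10, adjusted p = 9.19e-06 with nintedanib, 1.14 ± 0.10, adjusted p = 4.43e-06 with the combination, 0.92 ± 0.10, adjusted p = 3.89e-05 between combination and radiation). Mean P4ha2 was 2.22 times control with nintedanib and 2.37 times with the combination.

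Plod2, the lysyl hydroxylase of collagen telopeptides, averaged 12.5 ± 1.13 in combination, 13.6 ± 2.30 in nintedanib, 8.99 ± 0.725 in radiation and 8.45 ± 0.406 FPKM in control libraries. It rose with nintedanib (0.62 ± 0.11, adjusted p = 0.000828), the combination (0.51 ± 0.11, adjusted p = 0.00235) and between combination and radiation (0.43 ± 0.11, adjusted p = 0.00926), the last of these lost after rescaling to a common sum (adjusted p = 0.0531). Plod1, a lysyl hydroxylase of the helix, averaged 47.6 ± 2.44, 40.1 ± 3.83, 44.02 ± 1.96 and 41.1 ± 1.62 FPKM. Its small rise with the combination (0.21 ± 0.08, adjusted p = 0.0457) was lost in 11 of 20 settings, 9 of which left out nintedanib replicate 1, combination replicate 1 or 2, any radiation replicate or any control replicate (adjusted p 0.0515 to 0.142 over the 11). Plod3, which also adds sugars to hydroxylysine, averaged 23.2 ± 2.31, 22.7 ± 1.16, 21.9 ± 2.37 and 23.1 ± 1.42 FPKM and passed nowhere. Serpinh1 averaged 489 ± 41.9 in combination, 397 ± 41.1 in nintedanib, 496 ± 24.4 in radiation and 467 ± 23.6 FPKM in control libraries; all nintedanib libraries were below all others, but its change with nintedanib did not pass (-0.24 ± 0.10, adjusted p = 0.0663).

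Promoter windows of RefSeq in GRCm38.p6 matched 24 of the 36 genes, as 26 windows of the 250 bases before a start. The core of the hypoxia response element (ACGTG or GCGTG on either strand, which can share bases with the CRE motif TGACG) was in 14 of the 26 windows, 53.8%, and in 38.6% of all 32851 promoters. The Sp1 box GGGCGG was in 19 windows, 73.1%, and in 32.7% of all promoters. CCAAT was in 34.6% of the members' windows and 33.8% of all promoters, the TATA box TATAAA in 7.69% and 12.4%, and the CRE motif in 15.4% and 17.8%. The windows of P4ha1 and P4ha2, which rose together with the drug, and those of Bgn and Loxl4, which fell with it, are shown because both kinds hold the hypoxia core. It is printed in capitals, each sequence running 5′ to 3′ on the strand of its gene; the Loxl4 window leaves out 7 bases that an annotated exon covers, and the P4ha2 window lies before a start that falls inside an intron of a longer P4ha2 transcript.
P4ha1 (chr10:59323046-59323295, plus strand): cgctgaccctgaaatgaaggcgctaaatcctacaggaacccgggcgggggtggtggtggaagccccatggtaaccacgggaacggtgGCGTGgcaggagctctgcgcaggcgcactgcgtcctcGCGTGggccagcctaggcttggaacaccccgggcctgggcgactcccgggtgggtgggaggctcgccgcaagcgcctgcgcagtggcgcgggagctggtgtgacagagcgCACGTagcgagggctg
P4ha2 (chr11:54100674-54100923, plus strand): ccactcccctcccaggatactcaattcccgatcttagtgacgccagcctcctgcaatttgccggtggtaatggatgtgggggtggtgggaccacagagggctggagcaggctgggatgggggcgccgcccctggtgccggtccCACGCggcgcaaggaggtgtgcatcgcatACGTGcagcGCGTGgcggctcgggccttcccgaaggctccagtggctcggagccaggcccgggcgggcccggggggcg
Bgn (chrX:73483351-73483600, plus strand): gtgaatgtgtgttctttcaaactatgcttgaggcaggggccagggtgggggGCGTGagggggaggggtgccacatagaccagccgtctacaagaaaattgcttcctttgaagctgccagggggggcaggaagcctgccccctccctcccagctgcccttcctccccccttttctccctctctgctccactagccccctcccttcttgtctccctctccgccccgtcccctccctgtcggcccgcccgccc
Loxl4 (chr19:42612814-42613056, minus strand): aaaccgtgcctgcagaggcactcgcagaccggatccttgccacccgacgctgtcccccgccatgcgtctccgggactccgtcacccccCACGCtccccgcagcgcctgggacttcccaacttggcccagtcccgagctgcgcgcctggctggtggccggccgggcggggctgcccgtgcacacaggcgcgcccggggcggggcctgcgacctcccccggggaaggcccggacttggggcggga
P4ha1 held the core at 163, 126 and 16 bases before its start and P4ha2 at 107, 78 and 69 bases. Bgn held 1 match, at 199 bases, and Loxl4 1, at 162 bases. The matches are letters in these windows and were not tested as binding sites; they occur in genes that rose and in genes that fell.

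The effect of the drug was measured in irradiated and in unirradiated cells on separate libraries, since combination against radiation and nintedanib against control share none. Across the 33 tested members the 2 sets of log2 fold changes had a correlation of 0.939, and across all 13012 genes 0.751; genes on each axis share the same 6 libraries, and genes are not independent replicates. The sign was the same for 27 of 33 members and for 77.1% of all genes. The 15 members that passed in combination against radiation all passed in nintedanib against control with the same sign. That is 100% of these 15 and 83.3% of the 18 that passed with nintedanib. Among all genes, 34.4% and 41.6% passed in these comparisons. Their overlap was not counted, so it cannot be said whether that of the members is unusual. Without Col12a1 the correlation was 0.937, and all 14 members that passed in combination against radiation were among the 17 that passed with nintedanib. Loxl2, Loxl3 and Col4a1 passed only in unirradiated cells. The test of the difference itself, the interaction, called 0 members at an adjusted p under 0.05, in limma on FPKM and in voom on fragments. Of all genes, limma called 0.00769%, which is 1 gene, and voom called 2. At an unadjusted p under 0.05 the interaction in limma had 4 members, Loxl2, Col5a2, Col7a1 and Col18a1, all with a negative difference. These are 12.1% of the members, near the 12.9% of all genes. The values for the next smallest p were -0.31 ± 0.09, adjusted p = 0.266 for Col5a2 and -0.39 ± 0.13, adjusted p = 0.276 for Col7a1.

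**Figure D5:**
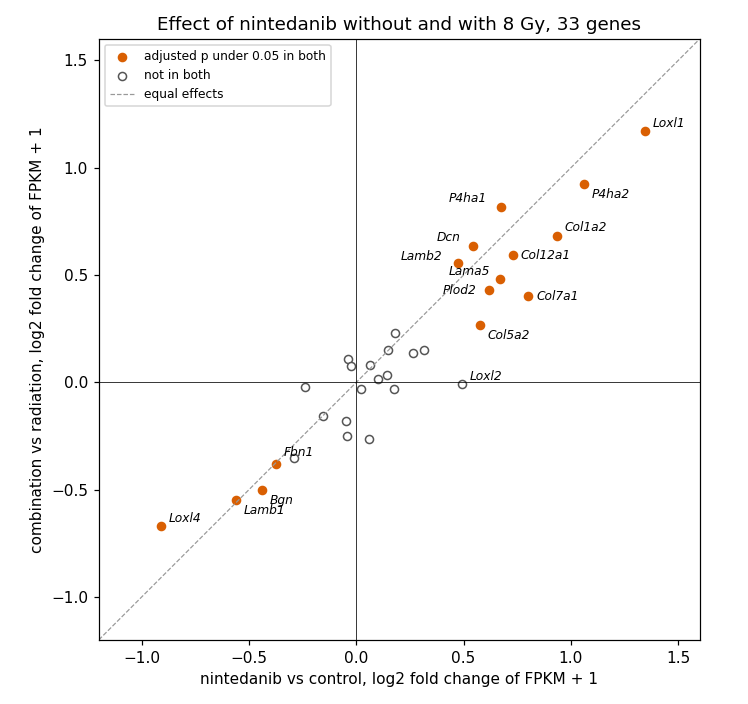
Log2 fold change of FPKM + 1 for nintedanib against control on the horizontal axis and for combination against radiation on the vertical axis, 1 point per tested gene; the dashed line marks equal effects and filled points passed in both. The 15 filled points, Col12a1 among them, run along the line from Loxl4 to Loxl1. Loxl2 lies at 0.49 on the horizontal and -0.01 on the vertical axis.

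With X-rays on top of the drug, 1 member passed the test. Between combination and nintedanib the members with no overlap between groups were Col6a3, Col7a1, Loxl2, P4ha1, Plod1 and Serpinh1, all higher in combination. Of these only Loxl2 passed; P4ha1 gave 0.24 ± 0.07, adjusted p = 0.0689 and Serpinh1 0.30 ± 0.10, adjusted p = 0.0954. Tested on fragments with voom, Serpinh1 also passed, at 0.31 (adjusted p = 0.0416).

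Further genes of the same pathways were counted from 7 lists of 131 genes, 66 of which were tested. With the combination 33 rose and 10 fell, or 50% and 15.2%, where 22.3% and 25% of all genes did. With nintedanib 28 rose and 7 fell, or 42.4% and 10.6%, where 19.7% and 22% of all genes did. With radiation 13 rose and 7 fell, or 19.7% and 10.6%, where 8.04% and 9.9% of all genes did. Between combination and radiation 31 rose and 7 fell, or 47% and 10.6%, against 17.2% and 17.3% of all genes. Between combination and nintedanib 2 rose and 2 fell, or 3.03% each, against 3.17% and 2.37%. Of the 66, Lama4, Npnt and Itga10 were under 1 FPKM in every control library and could be tested only through treated libraries. A difference from control was therefore built into their being tested. The counts and shares above include them, Npnt among the rises with radiation, and no count without them was made. Rescaled to a common sum, radiation raised 21 and lowered 3, and nintedanib raised 33 and lowered 6. The interaction called 0 in limma and 0 in voom.

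Among other fibrillar collagens, Col5a3, a further chain of type V, averaged 13.6 ± 2.53 in combination, 9.79 ± 1.21 in nintedanib, 8.37 ± 0.210 in radiation and 3.91 ± 0.278 FPKM in control libraries. It rose with the combination (1.56 ± 0.12, adjusted p = 1.92e-06), nintedanib (1.13 ± 0.12, adjusted p = 2.14e-05) and radiation (0.93 ± 0.12, adjusted p = 0.000553). Col9a3, a chain of type IX collagen, rose with the combination (0.87 ± 0.10, adjusted p = 5.01e-05) and nintedanib (0.81 ± 0.10, adjusted p = 0.000101). Of the other network collagens, Col4a5, a chain of type IV, rose with nintedanib (0.54 ± 0.11, adjusted p = 0.00236), and Col8a1, a short-chain collagen, fell with radiation (-0.34 ± 0.05, adjusted p = 0.00224), a call lost in 1 of 20 settings.

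Of 10 tested laminin and basement membrane genes, 7 rose and 1 fell with the combination, where 22.3% and 25% of all genes did. With nintedanib 5 rose and 0 fell, against 19.7% and 22%. With radiation 4 rose and 1 fell, against 8.04% and 9.9%. Lama4 and Npnt are among the 10. Lamb3, the beta chain of epithelial laminin, averaged 12.4 ± 0.664 in combination, 9.004 ± 0.627 in nintedanib, 6.11 ± 0.523 in radiation and 4.03 ± 0.0753 FPKM in control libraries, and rose with each (1.41 ± 0.07, adjusted p = 1.95e-07 for the combination, 0.99 ± 0.07, adjusted p = 1.99e-06 for nintedanib, 0.50 ± 0.07, adjusted p = 0.00141 for radiation). Dag1, dystroglycan, a laminin receptor, rose with nintedanib (0.78 ± 0.08, adjusted p = 1.9e-05) and the combination (0.59 ± 0.08, adjusted p = 0.000108). Pxdn, peroxidasin, which cross-links type IV collagen, rose with the combination (0.61 ± 0.07, adjusted p = 5.89e-05), nintedanib (0.56 ± 0.07, adjusted p = 0.000135) and radiation (0.44 ± 0.07, adjusted p = 0.00293).

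The 11 tested elastic fibre genes split, with 5 rising and 5 falling with the combination, where 22.3% and 25% of all genes did. With nintedanib 3 rose and 5 fell, against 19.7% and 22% of all genes. Ltbp1, which holds latent TGF-beta in the matrix, averaged 5.30 ± 0.127 in combination, 5.26 ± 0.419 in nintedanib, 13.5 ± 0.228 in radiation and 14.2 ± 0.283 FPKM in control libraries and fell with nintedanib (-1.28 ± 0.06, adjusted p = 1.45e-07) and the combination (-1.27 ± 0.06, adjusted p = 1.38e-07). Emilin2, an elastin-associated glycoprotein, averaged 65.4 ± 0.899, 60.6 ± 5.28, 33.4 ± 2.89 and 28.5 ± 1.34 FPKM in the same order and rose with nintedanib (1.06 ± 0.08, adjusted p = 2.78e-06) and the combination (1.17 ± 0.08, adjusted p = 1.19e-06). Fbln1, fibulin, rose with radiation (0.61 ± 0.12, adjusted p = 0.00556) and was higher in combination than in nintedanib cells (0.91 ± 0.12, adjusted p = 0.00198).

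Of 21 tested genes for collagen folding, modification and processing, 10 rose and 1 fell with the combination, where 22.3% and 25% of all genes did. With nintedanib 11 rose and 0 fell, against 19.7% and 22%. With radiation 4 rose and 4 fell, against 8.04% and 9.9%. P3h1, a prolyl 3-hydroxylase, rose with nintedanib (0.49 ± 0.07, adjusted p = 0.000186) and the combination (0.55 ± 0.07, adjusted p = 6.53e-05). P4hb, the partner subunit of the prolyl 4-hydroxylases, averaged 378 ± 18.1 in combination, 318 ± 27.99 in nintedanib, 272 ± 6.04 in radiation and 239 ± 6.25 FPKM in control libraries and rose with the combination (0.66 ± 0.08, adjusted p = 3.95e-05). P4ha3, a further catalytic subunit, rose with the combination (1.01 ± 0.11, adjusted p = 2.62e-05) and nintedanib (0.70 ± 0.11, adjusted p = 0.000398). It also rose with radiation (0.45 ± 0.11, adjusted p = 0.018), a call lost in 2 of 20 settings. Sec24d, a coat protein needed to export procollagen, rose with the combination (0.65 ± 0.08, adjusted p = 5.48e-05) and nintedanib (0.55 ± 0.08, adjusted p = 0.000216). Colgalt1 (-0.36 ± 0.07, adjusted p = 0.00579) and Pepd (-0.41 ± 0.08, adjusted p = 0.0069) fell with radiation. Of 6 other proteoglycans, 4 rose with the combination, 3 with nintedanib and 0 with radiation, where 22.3%, 19.7% and 8.04% of all genes rose. With the combination the syndecan Sdc2 had the smallest adjusted p (0.58 ± 0.07, adjusted p = 6.78e-05) and Prelp, a small leucine-rich proteoglycan, a larger change (0.63 ± 0.10, adjusted p = 0.000425).

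Among 13 tested receptors, 4 rose and 2 fell with the combination, 3 rose and 2 fell with nintedanib, and 2 rose with radiation. Of all genes, 47.2%, 41.6% and 17.9% passed in these comparisons, so the receptor counts were near the background. Itga10 is among the 13. The laminin-binding integrin chain Itga3 rose with nintedanib (0.68 ± 0.08, adjusted p = 4.02e-05) and the combination (0.45 ± 0.08, adjusted p = 0.000561). Cd44, the hyaluronan receptor, fell with nintedanib (-0.42 ± 0.07, adjusted p = 0.000494), and its rise with radiation (0.23 ± 0.07, adjusted p = 0.0381) was lost in 6 of 20 settings. Itgb3, a chain of the vitronectin receptor, rose with radiation (0.76 ± 0.15, adjusted p = 0.00739) and averaged 4.89 ± 0.642 in radiation and 2.48 ± 0.290 FPKM in control libraries.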

How the data were processed

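MC38 cells were sequenced as 12 libraries in 4 groups, grouped by their titles. The authors deposited 1 table of FPKM values with gene coordinates and gene model lengths, per the file headers. Coordinates are in GRCm38, also called mm10, a build named by the submitters' processing notes. Nothing in the sources used here states the aligner, counting tool, annotation release, strand setting or the scaling behind the FPKM values. Multiplied by gene length, all nonzero values were whole multiples of 1 step (100% within 0.01 of a step). This gave 16103528 to 18196615 fragments per library, and these totals and limits cover counting error only. The depth that the step implies was 0.970 to 0.982 of these totals in control libraries and 1.0006 to 1.03 in treated libraries. The deposited FPKM were thus not scaled to the fragment totals alone. Replicates differed by more than sampling noise (chi-square per gene 4.30 to 30.2 in 12 pairs over genes with at least 20 fragments), and p-values measure the spread between these libraries.

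Genes with at least 1 FPKM in at least 3 libraries were tested on log2(FPKM + 1), with a pseudocount of 1, by limma 3.58.1 under R 4.3.3, with trended empirical Bayes moderation and two-sided p-values. A single fit of the 12 libraries left 8 residual degrees of freedom. Benjamini-Hochberg adjustment ran over the 13012 genes in each comparison, with a threshold of 0.05. The interaction is the drug effect in irradiated minus that in unirradiated cells. Fold changes on this scale understate those of low genes. The code was tested on simulated data.

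Every member is named; library values are given for up to 8 members with the largest changes past the threshold in each comparison, and up to 4 genes per pathway list and comparison by smallest adjusted p could be named. The Lamb2 to Lamb1 ratio was added after values were seen. The members and lists were chosen with earlier results of these data known. The 20 alternatives included another pseudocount (0.1), no filter, rescaling to a common sum or by median ratios, and voom on recovered fragments. The rest were a replicate block, fits of compared groups alone, leaving out each library and, chosen after seeing the data, scaling to library totals. Rescaling by median ratios left the counts of called genes and called members unchanged in every comparison, so it was hardly a separate check.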

Additional observations from a re-analysis of the deposited data

How the results depend on the processing

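The counts of changed members held their direction in all 20 alternatives, and no called member reversed. Of the calls, 16 of 21 were kept in every alternative for combination against control, 13 of 18 for nintedanib, 3 of 6 for radiation, 11 of 15 for combination against radiation and 1 of 1 for combination against nintedanib. Col12a1, testable only through the groups where it was high, is counted among those kept for combination against control, nintedanib, and combination against radiation. Leaving out 1 library gave 17 to 23 changed members for combination against control, 14 to 19 for nintedanib, 3 to 7 for radiation, 14 to 17 for combination against radiation, 1 for combination against nintedanib and 0 for the interaction; the radiation count was 3 without control replicate 3. The other settings gave 19 to 25, 16 to 19, 4 to 8, 13 to 16, 1 to 2 and 0 in the same order. Combination against nintedanib had 2 members with no filter on low values, where Nid1 enters the genes tested, and 2 with voom, where Serpinh1 joins Loxl2; the cause of the second was not tested. Rescaling to a common sum shifted the median of all genes by -0.115 in the interaction and by 0.1 or less elsewhere. Of 88 named calls of other pathway genes, 67 were kept in all settings and 0 reversed.

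The titles number the replicates alike in each group, and no pairing by these numbers was seen. Deviations from the group means of same-numbered libraries had correlations of -0.298 to 0.202, with 3 of 18 over 0.1. Those of other pairs ran from -0.244 to 0.29. A shared effect smaller than the spread between replicates would not show in these correlations. With the replicate number as a block, 20 members changed for combination against control, 16 for nintedanib, 6 for radiation, 15 for combination against radiation, 1 for combination against nintedanib and 0 for the interaction. Depth limits Lum, Lox and Nid1, and the drug and radiation were each given at 1 dose and read at 1 time.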
